A study of Mus musculus with 10 samples.

Results

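The effect of losing 1 copy of Ddx41 in cells that also lacked 1 copy of Trp53 was examined in R2 cells, the CD71+Ter119+ erythroid progenitors of mouse bone marrow (BM). The samples were chosen by genotype, as 2 Ddx41+/-Trp53+/- mice (replicates 46 and 47) against 3 Ddx41+/+Trp53+/- mice (replicates 22, 23 and 24), which are 5 of the 10 RNA-seq libraries of the series. Of 24421 genes in the count table, 11846 passed the filter on low counts and are described here. Each recipient was a lethally irradiated BoyJ mouse that received 1M BM mononuclear cells, was then given 1 mg of tamoxifen daily for 5 days in 2 rounds, and was killed 8 weeks after transplant. Donor cells carried Rosa-CreERT2, a tamoxifen-inducible Cre that is expressed in most cell types, with or without 1 floxed Ddx41 allele, and 1 Trp53 allele was missing from the germline of all donors in this comparison. Both genotypes therefore shared irradiation, transplantation, tamoxifen, CreERT2 and the loss of 1 Trp53 allele. The deposited table is named as having had 2 further mice taken out. Their numbers in that name adjoin those of Ddx41+/-Trp53+/+ and Ddx41+/-Trp53+/- mice. Their genotype and the reason are not given in the sources used here, and they were not analysed here. Whether the Ddx41+/-Trp53+/- group lost a mouse in this way is thus unknown. The sort named in the labels used CD71 and Ter119 and no marker of donor origin, so cells left by the host were not gated out. The age and sex of the mice were not given in the sources used here. Of the other 5 libraries, 3 were Ddx41+/+Trp53+/+ and 2 were Ddx41+/-Trp53+/+.

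DDX41 is an RNA helicase of the DEAD-box family. It associates with the spliceosome, has been studied as a sensor of DNA in the cytosol, and acts on RNA-DNA hybrids and on small nucleolar RNAs. Loss-of-function mutations in 1 copy of the human gene predispose carriers to myeloid malignancy. The p53 protein, encoded by Trp53, halts the cell cycle or triggers cell death under stress, in part by inducing Cdkn1a, and erythroid progenitors are known to be sensitive to it. The comparison asks which Ddx41-dependent expression differences are present when Trp53 is heterozygous.

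The 5 libraries held 10313928 (Ddx41+/+Trp53+/-, replicate 22) to 17949900 counts. Pearson's r of log2 CPM (counts scaled to the size of each library) across genes was 0.984 to 0.987 between mice of one genotype and 0.981 to 0.989 between genotypes. The first principal component, with 37.4% of the variance, set replicate 22 apart, at -37.0. The other Ddx41+/+ mice lay at 7.90 and -1.30 and the Ddx41+/- mice at 21.97 and 8.46, so the genotypes were ordered on it but adjoined each other. The erythroid markers of the sorted cells summed to 52769 to 59074 CPM, but the 6 adult globin symbols in the table held at most 21 counts in any library. Neutrophil and macrophage transcripts were present in every library, as given below. Nothing in the labels says whether mice shared a litter or processing day. The paper does not say how many donors supplied each genotype, and differences between donors were not tested. The p-values rest on the spread between mice of one genotype, estimated over all 10 libraries.

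Ddx41 transcript was lower in both Ddx41+/- mice but did not pass the test. Ddx41 (chr13:55530410-55536658, GRCm38, minus strand) measured 26.6, 22.9 and 23.2 CPM in the Ddx41+/+Trp53+/- mice. It measured 12.5 and 15.6 CPM in the Ddx41+/-Trp53+/- mice. The groups did not overlap, and the log2 fold change was -0.78 ± 0.15 (SE), with an adjusted p of 0.177 by edgeR's quasi-likelihood test. DESeq2 called the same difference (adjusted p = 0.00781), as did edgeR with no filter on low counts. The counts cover the whole gene, not the floxed exons alone. With Trp53+/+, the log2 fold change of Ddx41 was -0.63. Trp53 itself (chr11:69580359-69591873, plus strand), which is heterozygous in both groups, measured 43.1, 41.8 and 44.5 CPM in Ddx41+/+ mice and 40.3 and 46.2 CPM in Ddx41+/- mice. These values overlapped, and the log2 fold change was 0.00 ± 0.10 (SE). In the 5 mice with Trp53+/+, Trp53 measured 57.4 to 68.1 CPM, above every Trp53+/- mouse.

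Few genes separated Ddx41+/-Trp53+/- from Ddx41+/+Trp53+/- R2 cells. Requiring a change of more than 1.5-fold together with an adjusted p below 0.05, 5 genes were called differentially expressed (DEGs), which is 0.0422% of the tested genes. Zfp69 rose (0.00844% of tested genes) and Cdk5rap1, Capn11, Magi1 and Ints10 fell (0.0338%). At an unadjusted p under 0.05, 444 genes were past the limit (3.75%), of which 255 were higher (2.15%) and 189 lower (1.60%) in Ddx41+/- mice. For 2370 genes (20.0%), both Ddx41+/- mice lay on the same side of all Ddx41+/+ mice, with 1093 higher (9.23%) and 1277 lower (10.8%). With no effect of genotype, random order of the mice would also be expected to separate groups of this size in 20.0% of genes. Lack of overlap in a gene therefore does not by itself show a difference between the genotypes. The 3.75% of genes at an unadjusted p under 0.05 was also below the share of 0.05 expected with no effect. The median log2 fold change over all tested genes was -0.01, and the median of its absolute size was 0.12. On the Trp53+/+ background the same model called 64 genes (0.540%), with a median absolute size of 0.15.

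**Figure D1:**
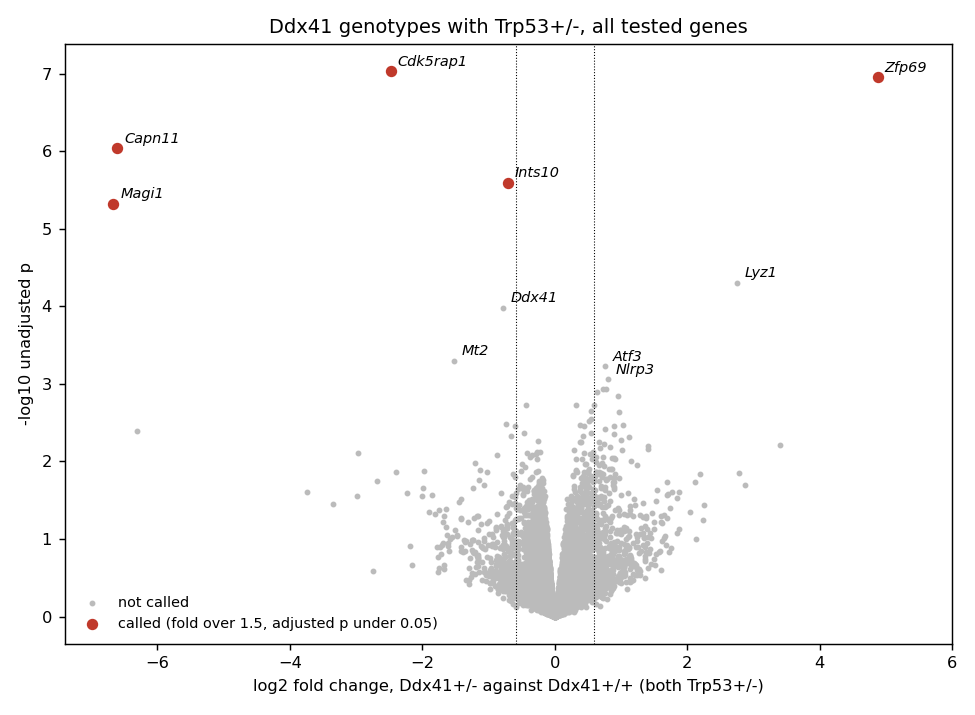
The log2 fold change of Ddx41+/-Trp53+/- against Ddx41+/+Trp53+/- R2 cells (horizontal axis) against -log10 of the unadjusted p (vertical axis) for 11846 genes, 1 point per gene. The 5 called genes are red and dotted lines mark a fold change of 1.5. Ddx41, Lyz1, Atf3, Nlrp3 and Mt2 lie below the called genes.

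Zfp69 (chr4:120930137-120951699, minus strand) encodes a zinc finger protein with a KRAB repressor domain. It measured 0.300, 0.309 and 0.175 CPM in the Ddx41+/+Trp53+/- mice, from 3, 5 and 3 counts. It measured 5.64 and 9.76 CPM in the Ddx41+/-Trp53+/- mice, from 97 and 174 counts. The groups did not overlap, and the ratio of the summed counts, scaled to library size, was 30.5 (95% exact interval 16.8 to 61.8, counting error only). The log2 fold change was 4.87 ± 0.54 (SE), with an edgeR adjusted p of 0.000657. In the 5 mice with Trp53+/+, Zfp69 measured 0.254 to 1.03 CPM, so both double heterozygotes stood above the other 8 mice. The difference between the Trp53 backgrounds was not past the threshold (edgeR adjusted p = 0.0789).

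Cdk5rap1 (chr2:154335380-154373010, minus strand) encodes an enzyme that modifies mitochondrial tRNAs. It measured 25.9, 17.6 and 17.6 CPM in the Ddx41+/+Trp53+/- mice and 2.96 and 4.26 CPM in the Ddx41+/-Trp53+/- mice. The groups did not overlap, and the log2 fold change was -2.48 ± 0.27 (SE), with an edgeR adjusted p of 0.000657. With Trp53+/+ the order was the opposite. There, Cdk5rap1 measured 7.59, 3.84 and 5.95 CPM in Ddx41+/+ mice and 39.6 and 41.5 CPM in Ddx41+/- mice. The log2 fold change on that background was 2.81, and the difference between the backgrounds was -5.29 on the log2 scale (edgeR adjusted p = 1.30e-06).

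Capn11 (chr17:45630204-45659325, minus strand) encodes a calpain protease known mainly from testis. It measured 9.80, 3.83 and 5.65 CPM in the Ddx41+/+Trp53+/- mice, from 98, 62 and 97 counts. Replicate 46 of the Ddx41+/-Trp53+/- mice had 0 counts, which allows up to 0.174 CPM, and replicate 47 had 2 counts. Both were below all controls, and the ratio of the summed counts, scaled to library size, was 104 (95% exact interval 28.5 to 862). The fitted log2 fold change was -6.61 ± 0.83 (SE), with an edgeR adjusted p of 0.00358. Capn11 was also called with Trp53+/+, where Ddx41+/+ mice had 14, 36 and 30 counts and both Ddx41+/- mice had 0. Its near absence was thus shared by the 4 Ddx41+/- mice of both backgrounds.

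Magi1 (chr6:93675455-94283917, minus strand) encodes a scaffold protein of cell junctions. It measured 8.70, 1.92 and 17.8 CPM in the Ddx41+/+Trp53+/- mice, from 87, 31 and 305 counts. The Ddx41+/-Trp53+/- mice had 2 and 1 counts. Both were below all controls, and the ratio of the summed counts, scaled to library size, was 114 (95% exact interval 38.7 to 555). The fitted log2 fold change was -6.66 ± 0.99 (SE), with an edgeR adjusted p of 0.0113. With Trp53+/+, no mouse of either Ddx41 genotype had more than 3 counts. The 3 Ddx41+/+Trp53+/- mice thus stood above the other 7, and they varied widely among themselves.

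Ints10 (chr8:68793929-68831667, plus strand) encodes a subunit of Integrator, a complex that cleaves nascent RNA at snRNA and other genes. It measured 127.5, 129.8 and 125.9 CPM in the Ddx41+/+Trp53+/- mice and 79.7 and 76.5 CPM in the Ddx41+/-Trp53+/- mice. No overlap was seen, and replicates lay close together. The log2 fold change was -0.71 ± 0.10 (SE), with an edgeR adjusted p of 0.00753. With Trp53+/+, Ints10 measured 126.2, 152.4 and 121.1 CPM in Ddx41+/+ mice and 32.2 and 35.9 CPM in Ddx41+/- mice. The decrease was smaller with Trp53+/-, by 1.27 on the log2 scale (edgeR adjusted p = 0.000387).

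**Figure D2:**
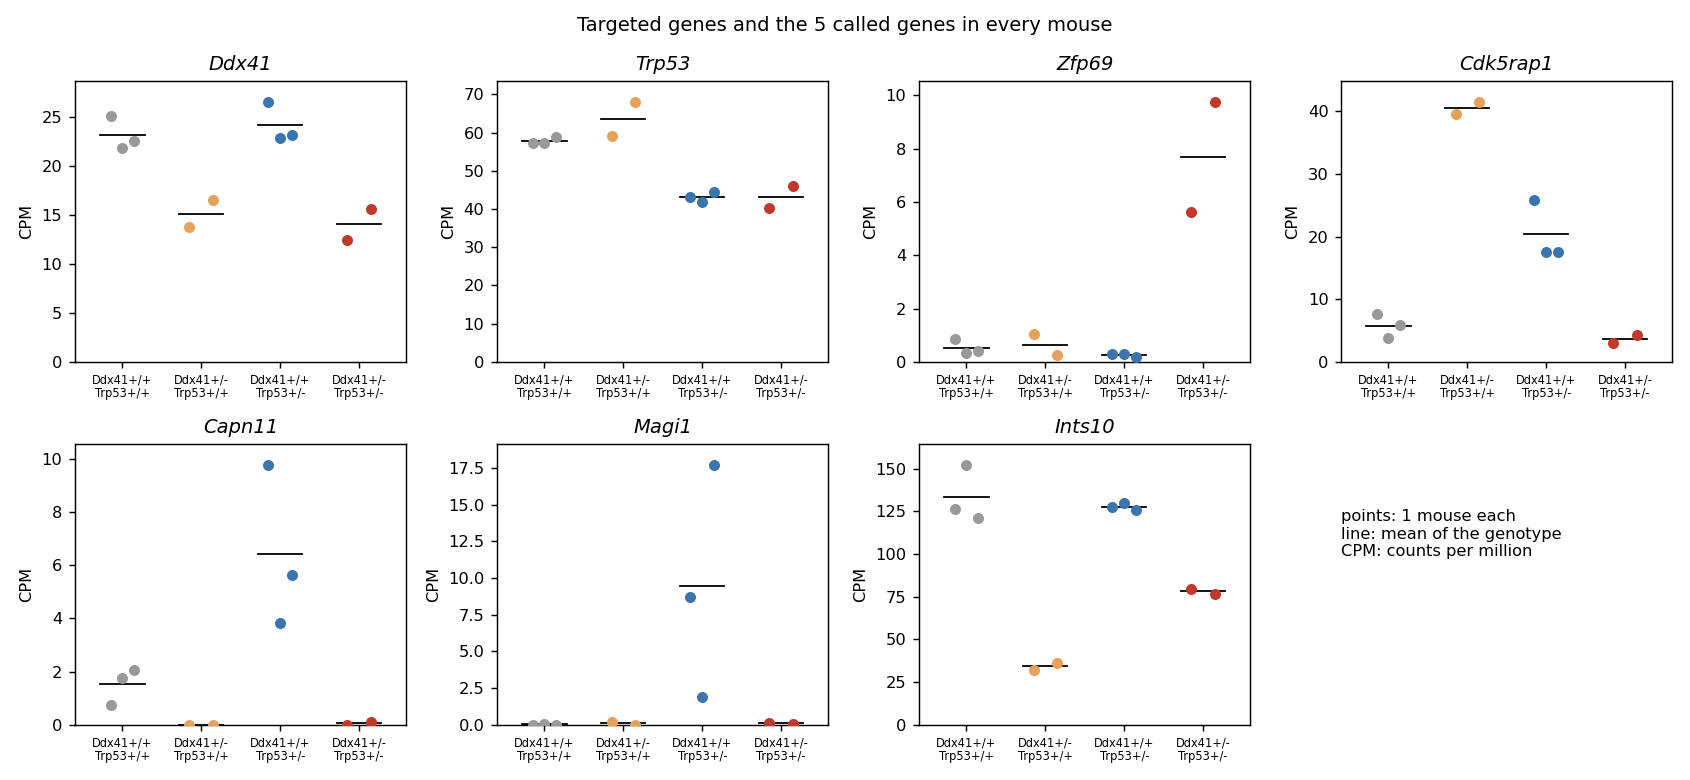
CPM (vertical axes, from 0) of Ddx41, Trp53 and the 5 called genes in each mouse of the 4 genotypes, with 1 point per mouse and a line at the genotype mean. Cdk5rap1 is low in double heterozygotes (2.96 and 4.26 CPM) and high in Ddx41+/-Trp53+/+ mice (39.6 and 41.5 CPM), whereas Ints10 is lower in Ddx41+/- mice on both backgrounds.

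The number of DEGs depended on single mice. Without replicate 46, the Ddx41+/- arm held 1 mouse, which was assumed to vary like the other groups, and 1 gene was called (Zfp69). Without replicate 47, 2 genes were called (Cdk5rap1 and Unc5cl, the latter named after its values were seen). Without the Ddx41+/+ replicate 23, 10 genes were called, which added Ahnak, Atf3, Clec4a3, Nr4a1 and Tnfaip3 to the 5, and without replicate 24 the 6 called genes included Fosb and Lyz1 but not Magi1. Without replicate 22 the same 5 genes were called. All 5 genes kept their direction in each of these fits.

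Around Ints10, 10 of 54 tested genes within 2 Mb on each side had an unadjusted p under 0.05, against 3.75% of all tested genes. Of these neighbours, 7 were higher (including Lpl and Mau2, named after their values were seen) and 3 lower in Ddx41+/- mice, and the smallest adjusted p by edgeR was 1.00. The count was 1 of 51 around Capn11, 1 of 55 around Cdk5rap1, 1 of 21 around Zfp69 and 0 of 10 around Magi1. None of the 5 called genes shared a 75-base stretch of its longest transcript with another gene, while Magi1 and Ints10 overlap small predicted genes.

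The 10 genes with the smallest p among those not called included Ddx41 and 9 others. Lyz1, which encodes a lysozyme of myeloid and Paneth cells, measured 0.900, 0.989 and 4.07 CPM in Ddx41+/+ mice and 15.5 and 12.7 CPM in Ddx41+/- mice. These values did not overlap, and the log2 fold change was 2.75 ± 0.50 (SE, edgeR adjusted p = 0.0985). Lyz1 shares 6.2% of its 75-base stretches with Lyz2. Mt2, a metallothionein that binds zinc and copper, measured 8.60, 4.45 and 4.72 CPM against 1.57 and 2.47 CPM, with a log2 fold change of -1.52 ± 0.35 (SE, edgeR adjusted p = 0.744). The other 7 (Atf3, Nlrp3, Ahnak, Klf4, Fosb, Pid1 and Ifitm3) had higher values in both Ddx41+/- mice than in any Ddx41+/+Trp53+/- mouse, with log2 fold changes of 0.32 (Ifitm3) to 0.96 (Pid1).

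No p53 target gene was called. Of 34 tested p53 targets, 0 were called by edgeR or DESeq2, 0 had an unadjusted p under 0.05, and 22 had a positive and 11 a negative log2 fold change. Without overlap between the genotypes, 6 were higher and 0 lower, against 9.23% and 10.8% of all tested genes. Their median was 0.09, beside -0.01 over all tested genes, 0.01 without replicate 22, and 0.14 with Trp53+/+. Cdkn1a, the p53-induced inhibitor of cyclin-dependent kinases, measured 4.40, 6.55 and 3.84 CPM in Ddx41+/+ mice and 5.87 and 4.99 CPM in Ddx41+/- mice. These overlapped, with a log2 fold change of 0.13 ± 0.24 (SE). With Trp53+/+, Cdkn1a was called (log2 fold change 1.20, edgeR adjusted p = 0.0153), with 15.6 and 16.6 CPM in Ddx41+/- mice and 6.71 to 7.68 CPM in Ddx41+/+ mice. The difference between backgrounds, -1.07 on the log2 scale, was not past the threshold (edgeR adjusted p = 0.672). Btg2, a p53-responsive antiproliferative gene, and Gadd45a, a DNA damage response gene, had log2 fold changes of 0.04 and -0.03.

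Heat-shock genes, which encode chaperones that refold proteins, were likewise uncalled. Of 20 tested, 0 were called by edgeR or DESeq2 (1, Hspa1a, by edgeR with no filter on low counts). Without overlap, 2 were higher and 3 lower, against 9.23% and 10.8% of all tested genes. At an unadjusted p under 0.05, 0 were higher and 1 was lower, against 2.15% and 1.60% of all tested genes. The median log2 fold change was -0.02 (0.01 without replicate 22), against 0.15 with Trp53+/+. Hspa1a measured 9.40, 19.7 and 18.2 CPM in Ddx41+/+ mice and 17.6 and 36.9 CPM in Ddx41+/- mice, with overlap. Its log2 fold change was 0.76 ± 0.41 (SE), against 2.23 with Trp53+/+, where it was called (edgeR adjusted p = 0.0126). The difference between backgrounds was not past the threshold for Hspa1a (edgeR adjusted p = 0.845) or for Hspa1b (edgeR adjusted p = 0.557), which share more than 50% of their 75-base stretches, so reads between these paralogs cannot be assigned with certainty. Fos measured 247.3, 142.4 and 398.3 CPM in Ddx41+/+ mice and 283.7 and 160.9 CPM in Ddx41+/- mice, and the spread within each group exceeded the difference between them.

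Immediate-early genes, the transcription factors and regulators induced within minutes of a stimulus, leaned upwards without a call. Of 29 tested, 0 were called by edgeR, Atf3 was called by DESeq2, and 6 were higher and 0 lower at an unadjusted p under 0.05, against 2.15% and 1.60% of all tested genes. The values did not overlap for 7 genes, all higher, against 9.23% of tested genes. With no filter on low counts, edgeR called Fosb, Klf4 and Atf3, all higher. The median log2 fold change was 0.21, and 0.09 (without replicate 22) to 0.33 (without replicate 24) when each mouse was left out. Atf3, a stress-induced transcription factor, measured 31.2, 49.7 and 34.3 CPM in Ddx41+/+ mice and 69.0 and 61.6 CPM in Ddx41+/- mice, without overlap. Fosb, a subunit of AP-1, measured 98.9, 114.0 and 161.4 CPM and then 195 CPM in both Ddx41+/- mice, also without overlap. With Trp53+/+, the median of this group was 0.65 and 4 of its genes were called.

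NF-kB, inflammasome and cytokine genes had higher values in Ddx41+/- mice for most members, without a call. Of 44 tested, 39 had a positive log2 fold change, and 19 were higher without overlap (9.23% of all tested genes) and 1 lower. None was called by edgeR or DESeq2, and 11 were higher and 0 lower at an unadjusted p under 0.05 (2.15% and 1.60% of all tested genes). With no filter on low counts, edgeR called 3 members (Nfkbiz, Nlrp3 and Cd83), all higher. The median log2 fold change was 0.25, and 0.15 (without replicate 46) to 0.32 when each mouse was left out. With Trp53+/+, the median was 0.42 and 3 genes were called.

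Nlrp3, the sensor of the NLRP3 inflammasome, measured 11.999, 15.4 and 9.60 CPM in Ddx41+/+ mice and 20.7 and 22.5 CPM in Ddx41+/- mice. Both Ddx41+/- mice were above all controls, and the log2 fold change was 0.81 ± 0.20 (SE, edgeR adjusted p = 1.00). Tnfaip3, which encodes the NF-kB inhibitor A20, measured 63.6, 108.3 and 82.7 CPM in Ddx41+/+ mice and 118.7 and 129.7 CPM in Ddx41+/- mice. These did not overlap either, and the log2 fold change was 0.54 ± 0.15 (SE, edgeR adjusted p = 1.00). Tnfaip3 was called with Trp53+/+ (log2 fold change 0.84, edgeR adjusted p = 0.0149), and without replicate 23 of the Ddx41+/+Trp53+/- mice it was called here too (log2 fold change 0.76, adjusted p = 0.0282). Nfkbia, the NF-kB inhibitor induced by NF-kB itself, measured 110.1, 165.9 and 117.8 CPM against 166.3 and 173.0 CPM, where the groups were separated by less than 1 CPM.

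Interferon-stimulated genes also leaned upwards. Of 50 tested, 46 had a positive log2 fold change, and 12 were higher and 1 lower without overlap, against 9.23% and 10.8% of all tested genes. At an unadjusted p under 0.05, 7 were higher and 0 lower, against 2.15% and 1.60%. None was called by edgeR or DESeq2, while edgeR with no filter on low counts called Xaf1 and Oas1a, both higher. The median log2 fold change was 0.22, and 0.10 (without replicate 47) to 0.34 (without replicate 23) when each mouse was left out. Rsad2, an antiviral enzyme, measured 1413, 1434 and 1418 CPM in Ddx41+/+ mice and 1463 and 1667 CPM in Ddx41+/- mice, just without overlap. Isg20, an exonuclease, measured 896.4, 923.6 and 910.9 CPM against 895.0 and 859.0 CPM, with both Ddx41+/- mice just below the controls. With Trp53+/+ the median was 0.10.

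Macrophage markers also leaned upwards in Ddx41+/-Trp53+/- mice. The summed level of the 16 macrophage markers was 467.1, 412.3 and 335.4 CPM in Ddx41+/+Trp53+/- mice and 676.5 and 529.0 CPM in Ddx41+/-Trp53+/- mice, without overlap. Of these markers, 15 had a positive log2 fold change, 10 were higher without overlap (9.23% of all tested genes), 9 were higher at an unadjusted p under 0.05 (2.15%), and 0 were called by edgeR or DESeq2. With no filter on low counts, edgeR called 4 of them (Vcam1, Axl, C1qa and Cd5l), all higher. The median log2 fold change was 0.53, and 0.35 (without replicate 46) to 0.74 when each mouse was left out. Their part in the differences of the inflammatory, interferon-stimulated and immediate-early genes was not tested, and more macrophages and more of these RNAs per cell cannot be told apart in bulk RNA.

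Csf1r, the receptor for the macrophage growth factor CSF1, measured 55.3, 70.3 and 43.2 CPM in Ddx41+/+ mice and 88.5 and 78.7 CPM in Ddx41+/- mice. Vcam1, an adhesion molecule of the macrophages at the centre of erythroblastic islands, measured 65.7, 47.9 and 43.9 CPM against 97.0 and 77.7 CPM. Neither gene overlapped between the genotypes. With Trp53+/+, the median of the macrophage markers was -0.10 and their summed level was 412.8 to 771.3 CPM in Ddx41+/+ mice and 516.5 and 655.2 CPM in Ddx41+/- mice, with overlap. The sums of the double heterozygotes lay within the range of the Trp53+/+ mice.

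Among the other cell type markers, sums overlapped except for the erythroid and the T and NK cell markers, which were lower in both Ddx41+/- mice. Erythroid markers summed to 59074, 55714 and 58603 CPM against 52769 and 55544 CPM, and T and NK cell markers to 39.7, 39.7 and 48.5 CPM against 39.2 and 36.8 CPM. Neutrophil markers spanned 6662 to 9334 CPM in Ddx41+/+ mice and 5559 and 9446 CPM in Ddx41+/- mice, so the double heterozygotes held both the lowest and the highest sum. B cell markers, at 241.0 to 306.9 CPM in Ddx41+/+ mice and 241.5 and 279.0 CPM in Ddx41+/- mice, had a median log2 fold change of -0.05, against 1.03 with Trp53+/+, where 3 were called. The median was 0.22 for monocyte and dendritic cell, 0.37 for mast cell and basophil and 0.15 for early progenitor markers. It was -0.09 for megakaryocyte and platelet, -0.02 for neutrophil and -0.14 for T and NK cell markers. Of all these markers, 0 were called by edgeR or DESeq2. With no filter on low counts, edgeR called the mast cell and basophil marker Mcpt8 as higher, though its values overlapped. The medians of neutrophil, B cell, mast cell and megakaryocyte markers changed sign when single mice were left out. The monocyte and dendritic cell median was 0.05 without replicate 22, the early progenitor median 0.04 without replicate 46, and the T and NK cell median -0.37 without replicate 46 and -0.06 without replicate 24. Sex-linked genes (Ddx3y, Eif2s3y, Uty, Kdm5d and Xist) summed to 138.5 to 155.4 CPM in Ddx41+/+ mice and 159.2 and 171.1 CPM in Ddx41+/- mice, without overlap. All 5 had a positive log2 fold change, Eif2s3y had an unadjusted p under 0.05, and 0 were called by edgeR or DESeq2. Ddx3y, a Y chromosome gene, measured 54.8, 68.6 and 58.4 CPM in Ddx41+/+ mice and 62.6 and 67.2 CPM in Ddx41+/- mice. Xist, an X-linked RNA of female cells, had 2 to 11 counts in these libraries. The RNA of both groups was thus mainly from male cells.

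**Figure D3:**
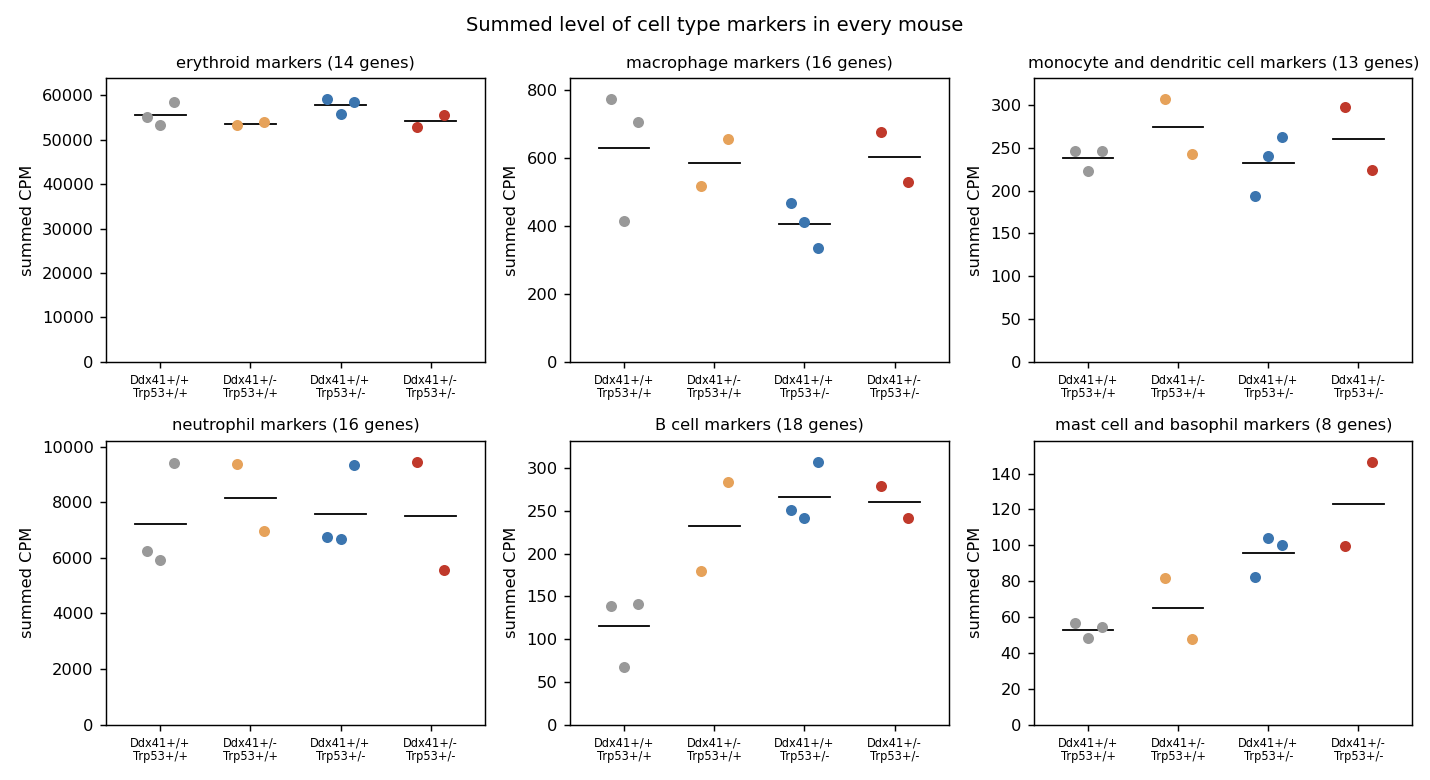
Summed CPM (vertical axes, from 0) of the markers of 6 cell types in each mouse of the 4 genotypes, with 1 point per mouse and a line at the genotype mean. The macrophage sums of the Ddx41+/-Trp53+/- mice (676.5 and 529.0 CPM) lie above those of the Ddx41+/+Trp53+/- mice (335.4 to 467.1 CPM), and the neutrophil sums overlap.

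Genes of red cell production were uncalled, with more members lower than higher in Ddx41+/- mice. Alas2, the first enzyme of erythroid heme synthesis, measured 7986, 8069 and 8440 CPM in Ddx41+/+ mice and 8204 and 7827 CPM in Ddx41+/- mice, with overlap. Slc25a37, which carries iron into mitochondria, measured 6568, 6688 and 6644 CPM against 5814 and 6202 CPM, without overlap, with a log2 fold change of -0.14 ± 0.06 (SE, edgeR adjusted p = 1.00). Tfrc, which encodes CD71 and was used in the sort, had a log2 fold change of -0.17. Of 21 heme synthesis genes, 17 had a negative log2 fold change (median -0.06), as did 18 of 22 red cell membrane genes (median -0.08), 13 of 18 erythroid iron genes (median -0.07) and 18 of 22 erythroid transcription factor genes (median -0.05). Without overlap, 7 heme synthesis, 6 membrane, 3 iron and 9 transcription factor genes were lower, against 10.8% of all tested genes, and 1, 1, 0 and 1 were higher. The summed heme synthesis genes measured 32908 to 33197 CPM in Ddx41+/+ mice and 31054 and 31578 CPM in Ddx41+/- mice, without overlap. The sums of the membrane and transcription factor genes did not overlap either. Those of the iron genes did, at 12309.5 to 13500.4 CPM in Ddx41+/+ mice and 11945.7 and 12421.9 CPM in Ddx41+/- mice. The iron gene median was -0.01 without replicate 22 and -0.11 without replicate 47, and the membrane gene median was -0.04 without replicate 46. None of these was called by edgeR or DESeq2. Of them, 1 heme synthesis gene and 2 membrane genes were lower at an unadjusted p under 0.05, against 1.60% of all tested genes. The 24 antioxidant genes (21 negative, 7 lower and 0 higher without overlap), 26 erythropoietin and KIT signalling genes (12 negative) and 28 erythroid clearance and ubiquitin genes (14 negative) held no called gene and 0 with an unadjusted p under 0.05.

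Integrated stress response genes, which respond to amino acid shortage and heme deficiency, had 10 of 25 members lower without overlap and 0 higher, against 10.8% and 9.23% of all tested genes. At an unadjusted p under 0.05, 5 were lower and 0 higher, against 1.60% and 2.15% of all tested genes. None was called by edgeR or DESeq2. Slc7a5, an amino acid transporter, measured 899.5, 826.6 and 819.9 CPM in Ddx41+/+ mice and 685.9 and 763.2 CPM in Ddx41+/- mice. The groups did not overlap, and the log2 fold change was -0.23 ± 0.07 (SE, edgeR adjusted p = 1.00). Ppp1r15a, which encodes the GADD34 phosphatase subunit, had a log2 fold change of 0.00. The median over the group was -0.09, and -0.13 to -0.09 when each mouse was left out.

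The spliceosome, R-loop, snoRNA host and cytosolic nucleic acid sensing genes, tied to known roles of DDX41, had medians between -0.03 and 0.12. Ribosome biogenesis is another role that the paper lists, and the median of its nucleolar genes was -0.10, as given below. Of 54 spliceosome genes, 0 were called by edgeR, while DESeq2 and edgeR with no filter on low counts called Ddx41 itself. At an unadjusted p under 0.05, 2 were lower and 0 higher, against 1.60% and 2.15% of all tested genes. The median log2 fold change was -0.03. Sf3b1, a core subunit of the U2 snRNP, measured 558.1, 521.9 and 560.7 CPM against 515.1 and 553.2 CPM. Of 27 R-loop genes 0 were called or had an unadjusted p under 0.05 (median -0.03). Among 14 snoRNA host genes, whose introns release snoRNAs, 12 had a positive log2 fold change (median 0.12, but 0.07 without replicate 22 and 0.20 without replicate 23), with 0 called and 0 at an unadjusted p under 0.05. Gas5, one such host, measured 137.1, 192.1 and 137.8 CPM in Ddx41+/+ mice and 167.8 and 186.8 CPM in Ddx41+/- mice, with overlap. Of 24 cytosolic nucleic acid sensing genes, 15 had a positive log2 fold change (median 0.06, but 0.02 without replicate 47). Ddx41 was the member past an unadjusted p of 0.05 and called by DESeq2 and by edgeR with no filter on low counts.

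Genes of ribosome production and cell division were also uncalled by edgeR and DESeq2. Of 80 ribosomal protein genes, 72 had a negative log2 fold change, but the median was -0.05, and 0.02 without replicate 22 of the Ddx41+/+ mice. Of 43 nucleolar ribosome biogenesis genes, 35 had a negative value (median -0.10, but -0.06 without replicate 22). Of these 43, 2 were lower and 0 higher at an unadjusted p under 0.05, against 1.60% and 2.15% of all tested genes. Without overlap, 9 ribosomal protein, 9 nucleolar and 8 mitosis genes were lower and 0, 1 and 0 higher, against 10.8% and 9.23% of all tested genes. Npm1, which encodes nucleophosmin, measured 171.8, 149.6 and 174.9 CPM in Ddx41+/+ mice and 149.2 and 146.4 CPM in Ddx41+/- mice, without overlap. S phase genes (41 tested, median -0.03) and mitosis genes (30 tested, median -0.04) held 1 higher and 1 lower gene at an unadjusted p under 0.05, respectively. The medians of S phase, R-loop, ETS family and BCL2 family genes changed sign without 1 of the mice. ETS family genes (16 tested, median 0.08) held 0 genes at an unadjusted p under 0.05. BCL2 family genes (16 tested, median 0.10) and helicases of the DEAD-box family (31 tested with Ddx41, median -0.04) each held 1. Both were lower, the latter being Ddx41. Mki67, the proliferation antigen, measured 11217, 11492 and 10216 CPM against 10580 and 11401 CPM, with overlap.

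**Figure D4:**
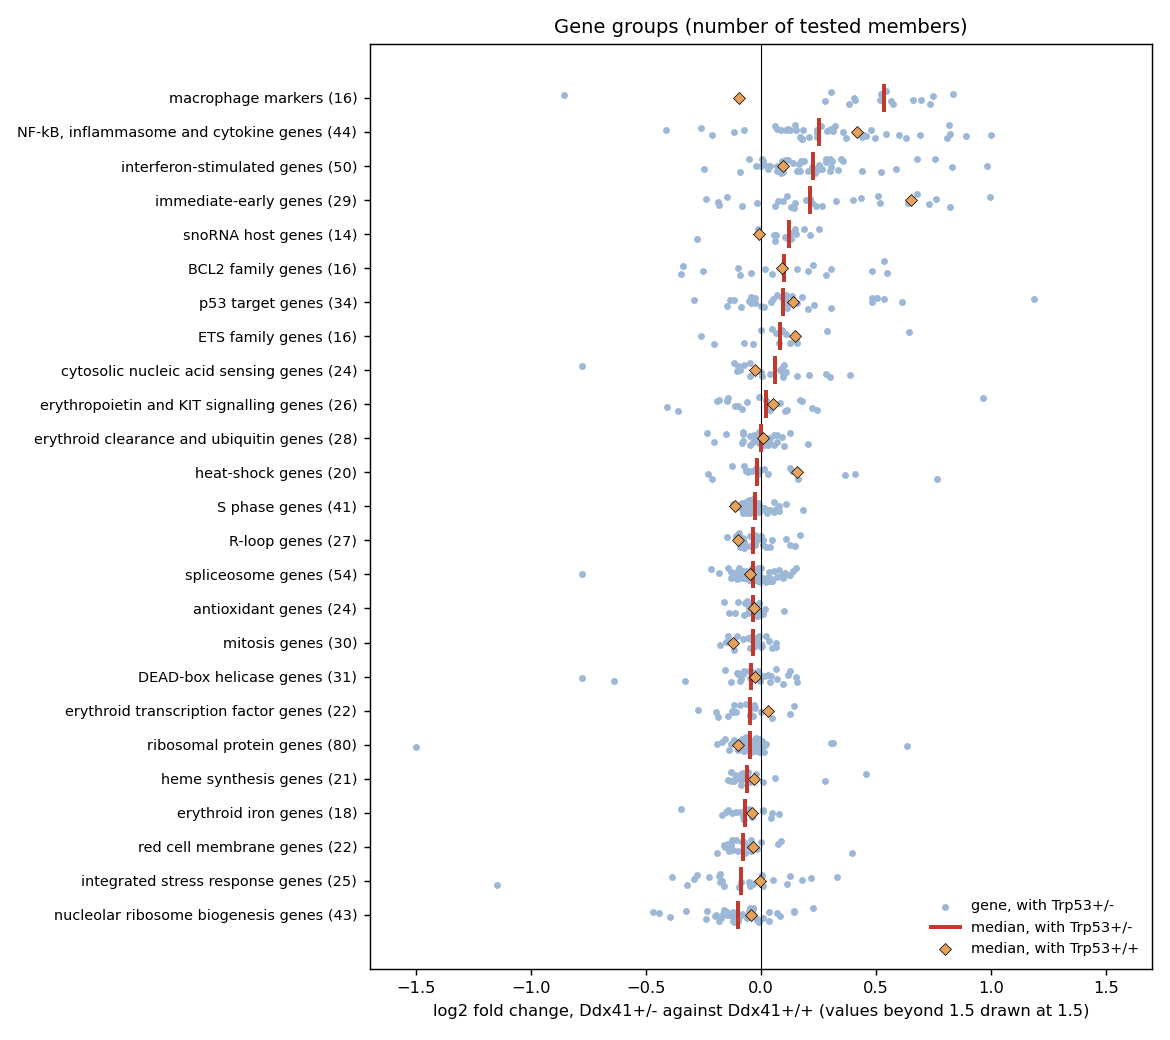
The log2 fold change of Ddx41+/- against Ddx41+/+ cells with Trp53+/- (horizontal axis, blue points, 1 per gene) for gene groups (rows, with the number of tested members), with the median of each group with Trp53+/- (red) and with Trp53+/+ (orange diamonds) and values beyond 1.5 drawn at 1.5. The macrophage markers have the highest median with Trp53+/- (0.53) and a median of -0.10 with Trp53+/+, while immediate-early genes have 0.21 and 0.65.

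The genes called with Trp53+/+ had smaller differences with Trp53+/-. Of the 45 genes called higher in Ddx41+/-Trp53+/+ mice, 37 had a positive and 8 a negative log2 fold change with Trp53+/-, with a median of 0.24 against 1.41. Of the 19 called lower, 15 were negative and 4 positive, with a median of -0.10 against -1.09. All 64 were smaller in absolute size with Trp53+/-. These genes were chosen by their size with Trp53+/+, which by itself makes a smaller size in other mice likely. Among the 45, 19 were higher without overlap with Trp53+/- (9.23% of all tested genes), and among the 19, 6 were lower without overlap (10.8%). Of the 64, 3 genes (Capn11, Ints10 and Cdk5rap1) were also called with Trp53+/-, the last in the opposite direction.

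The difference between the Trp53 backgrounds was tested gene by gene, and 8 genes passed (0.0675% of tested genes), of which Cdk5rap1 and Ints10 were described above. For 5 of the other 6, Ddx41+/-Trp53+/- mice lay within or next to the range of the other genotypes while Ddx41+/-Trp53+/+ mice stood apart. Clgn (chr8:83389867-83428552, plus strand), an endoplasmic reticulum chaperone, measured 14.7 and 15.4 CPM in Ddx41+/-Trp53+/+ mice and at most 0.494 CPM in the other 8 mice. Srpk2, a kinase of SR splicing factors, measured 48.0 and 55.1 CPM in those mice and 7.80 to 17.2 CPM in the others. Gcdh (chr8:84886393-84893921, minus strand), an enzyme of lysine breakdown, measured 34.9 and 35.7 CPM in Ddx41+/-Trp53+/+ mice and 77.6 to 94.5 CPM in the others. Clgn, Gcdh and Ints10 thus lie on the same chromosome.

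Nap1l1, a histone chaperone, measured 97.9 and 102.4 CPM in Ddx41+/-Trp53+/+ mice, and 197.8 and 220.8 CPM in Ddx41+/-Trp53+/- mice beside 228.8, 194.3 and 214.6 CPM in their Ddx41+/+ controls. Acp1, a small tyrosine phosphatase, measured 175.4 and 166.2 CPM in Ddx41+/-Trp53+/+ mice, and 278.3 and 332.1 CPM in Ddx41+/-Trp53+/- mice beside 320.6, 294.9 and 321.4 CPM. Mid1, a ubiquitin ligase bound to microtubules, was the exception. It measured 6.70, 11.4 and 4.31 CPM in Ddx41+/+Trp53+/- mice and 13.2 and 17.4 CPM in Ddx41+/-Trp53+/- mice, without overlap (log2 fold change 1.03 ± 0.30, SE, edgeR adjusted p = 1.00), against a log2 fold change of 4.18 with Trp53+/+. The difference between backgrounds did not pass for Mid1 without replicate 46 or without replicate 34 of the Ddx41+/-Trp53+/+ mice.

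**Figure D5:**
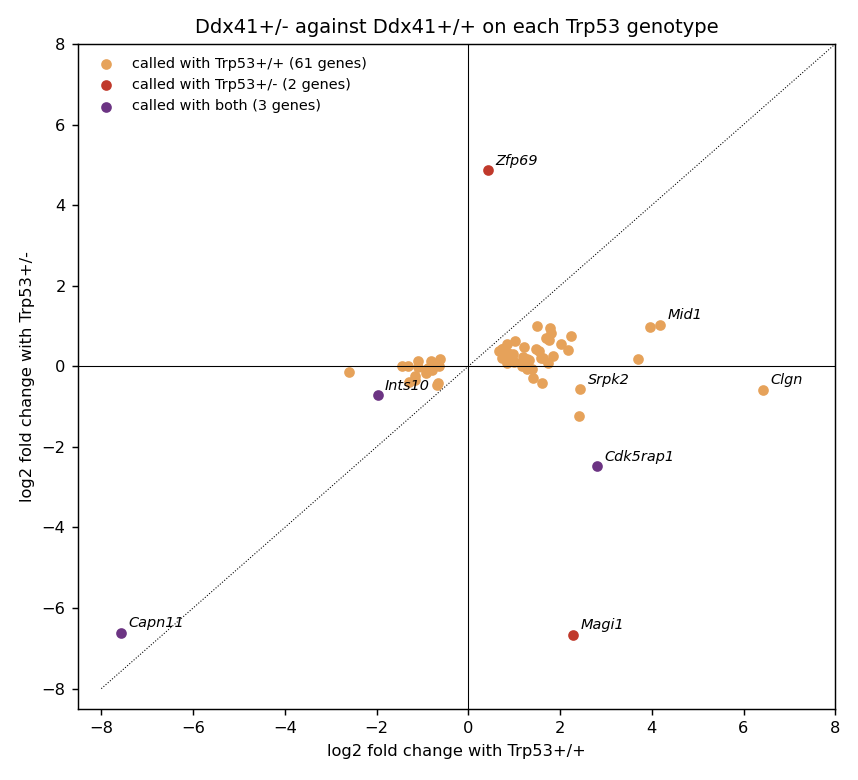
The log2 fold change of Ddx41+/- against Ddx41+/+ cells with Trp53+/+ (horizontal axis) and with Trp53+/- (vertical axis) for the genes called in either comparison, 1 point per gene, with a dotted line of equal size. Capn11 and Ints10 are lower on both backgrounds, Cdk5rap1 lies in opposite directions, and Zfp69 and Magi1 were called with Trp53+/- only.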

How the data were processed

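The authors deposited raw counts of reads per gene symbol for 10 libraries, without normalization. The submitters' processing notes name FastQC 0.11.7, HISAT2 2.0.5, featureCounts 1.5.2 and the mm10 build. The annotation and the strand setting are not given in the sources used here, so overlapping and antisense genes are uncertain. Samples were grouped by genotype from the labels.

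Counts were analysed with edgeR 4.0.16 in R 4.3.3 (TMM scaling, filterByExpr by genotype, quasi-likelihood F-test, two-sided). All 10 libraries were fitted with 1 mean per genotype, so that they share an estimate of the spread, and p-values were Benjamini-Hochberg adjusted over 11846 genes. The standard error was the absolute log2 fold change divided by the square root of F. A gene was called when it changed more than 1.5-fold with an adjusted p below 0.05. CPM used the scaled library sizes. The procedure was tested on simulated data. DESeq2 1.42.0, sva 3.50.0, other filters and scaling, and each mouse left out were the alternatives. Positions are from GENCODE M21 (GRCm38).

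The samples and gene lists were chosen with earlier results of these data known. Named genes are Ddx41, Trp53, all called genes, called members of each list and its 3 members of highest mean CPM, genes named in the paper for R2 cells, the 10 largest interaction genes and those with Trp53+/+, and the 10 smallest p not called. The lists and marker groups carry no test. Intervals cover counting error only, since reads have no molecular identifiers.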

Additional observations from a re-analysis of the deposited data

Results flagged for a closer look

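The effect of Ddx41 heterozygosity differed between the Trp53 backgrounds for 8 genes in a test of the difference itself by edgeR. The value given is the log2 effect with Trp53+/- minus that with Trp53+/+. It was -7.01 for Clgn (adjusted p = 0.00118), -5.29 for Cdk5rap1 (adjusted p = 1.30e-06), -3.15 for Mid1 (adjusted p = 0.00715) and -3.01 for Srpk2 (adjusted p = 0.000227). It was 1.32 for Gcdh and 1.27 for Ints10 (both adjusted p = 0.000387), 1.07 for Nap1l1 (adjusted p = 0.000387) and 0.84 for Acp1 (adjusted p = 0.00338). Mid1 did not pass without Ddx41+/-Trp53+/+ replicate 34 or Ddx41+/-Trp53+/- replicate 46, where other genes (Slc15a2 and Cd14) passed. Clgn was not tested where each library had to hold 10 counts or more. Each group held 2 or 3 mice, too few for a test of single outlying values.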

How the results depend on the processing

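The 5 genes called with Trp53+/- were also called with DESeq2's size factors, without a fold limit, with 1 surrogate variable and by DESeq2, which called 7 genes (Atf3 and Ddx41 added). With only the 5 Trp53+/- libraries, 4 were called (not Magi1). The count was 39 with no filter on low counts, 2 with at least 10 counts in every library, 171 at an unadjusted p with the fold limit, and 1 (without replicate 46) to 10 (without replicate 23) when each mouse was left out. The count of 8 genes whose effect differed between the Trp53 backgrounds was 100 with no filter, 378 at an unadjusted p, 29 by DESeq2 and 8 to 12 when each mouse was left out (Mid1 lost without replicate 34 or 46), and 7 with at least 10 counts in every library. The cause of the larger count without a filter was not tested. Of 1702 values of named genes under alternatives, 98 changed sign, 0 of them among called genes, and 52 of 62 values of called genes kept their direction and call. When each mouse was left out, the log2 fold change of Hba-x was -2.14 to 1.23, of S100a9 -0.47 to 0.40, of Ngp -0.43 to 0.32, of Ltf -0.40 to 0.31, of Ly6c2 -0.42 to 0.29 and of Hdc -0.32 to 0.36. With 2 mice in 1 group, differences smaller than the spread between mice were not detectable at this depth and number. No paired analysis was possible because the sources used here do not say which mice shared a litter, donor or processing day.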
